A study of Mus musculus with 18 samples.

Results

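Methionine is carried by 2 kinds of cytosolic tRNA, an initiator that places the first residue of every protein and an elongator that inserts methionine inside the chain. Every tRNA row whose identifier named an initiator (tRNA-iMet) or an elongator (tRNA-Met) methionine tRNA was taken, which gave 17 gene copies of the 407 tRNA gene copies and 203513 features counted. Copies that shared a family number were summed into 9 isodecoders (tRNAs with a common anticodon but different bodies) of 218. The initiator had 3 isodecoders from 9 copies and the elongator had 6 isodecoders from 8 copies. The study compared wild-type (WT) C57BL/6 mice with littermates homozygous for Atxn2-CAG100-KIN (KIN), an expanded CAG repeat knocked into Atxn2 as a model of spinocerebellar ataxia type 2, at 10 months of age and without treatment. From each dissociated brain, magnetic beads against CD11b took out microglia, beads against ACSA-2 then took out astrocytes, and neurons were what flowed through after the remaining cells were bound. Small RNA was sequenced from 3 WT and 3 KIN libraries per fraction, 18 in all. The knock-in was carried by the whole animal rather than by a chosen cell type. Both sexes were used, and the labels do not give the sex of a library.

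Initiator tRNA, charged with methionine, is bound by the factor eIF2 with GTP and delivered to the small ribosomal subunit, where it pairs with the start codon. The elongator is delivered by eEF1A to the decoding site of the assembled ribosome and reads the same codon further along the message. Both carry the anticodon CAT in gene letters and both are charged by the same methionyl-tRNA synthetase, but their bodies differ so that each is kept out of the task of the other. Mature tRNAs can also be cut into stable fragments, and a small RNA library recovers such pieces as well as longer reads. A count here is a read placed anywhere on a tRNA gene, so whole and cut molecules are not separated.

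Libraries held between 1211118 and 4316748 counts, with the neuronal libraries the shallowest. All tRNA rows together took 10.2 to 12.4% of the counts in astrocytes, 8.53 to 16.6% in microglia and 2.94 to 10.6% in neurons. Markers of the labelled cell types were checked on levels scaled to library totals, in CPM (counts scaled to the same library total). The microglial list, with counts for 7 of 7 markers, summed to 2921 to 5990 CPM in microglia and 12.1 to 379 CPM elsewhere. The astrocyte list, with 7 of 7 markers, summed to 283 to 333 CPM in WT astrocytes and 90.9 to 119 CPM in KIN astrocytes, where the oligodendrocyte list reached 1791 to 3055 CPM in WT and 3362 to 5124 CPM in KIN. The neuronal list summed to 61.1 to 238 CPM in the neuronal fraction against 1039 to 3153 CPM in astrocytes, but most of its counts were 2 miRNAs, miR-124-3p and miR-128-3p, with 31428 and 7262 counts in all. miR-138-5p had 1147 and 1935 counts in WT and KIN astrocytes against 48 and 30 in neurons. The transcripts of the list were sparse. Snap25 had 47 and 9 counts in WT and KIN astrocytes against 6 and 6 in neurons. Syt1 had 31 and 4 against 11 and 5, and Rbfox3 (NeuN) had 12 and 2 against 1 and 0. Only Tubb3 (neuronal tubulin) had most of its counts in neurons, with 34 in WT and 27 in KIN neurons of 77 in all. The red blood cell list stood at 127 to 312 CPM in WT neurons and 54.4 to 101 CPM in KIN neurons, against 17.0 to 32.9 CPM in WT glia and 15.0 to 119 CPM in KIN glia, and its part in the levels of the neuronal fraction was not tested. The labels neurons and astrocytes are used as names of fractions. One library, neurons WT replicate 2, stood apart, with 10.6% tRNA against 2.94 and 4.54% in the other WT neurons. Its oligodendrocyte list was at 176 CPM against 9.82 and 13.2 CPM. Results that rest on this library are given with and without it, except for the mitochondrial methionine tRNA.

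Over all libraries the initiator took 281492 counts and the elongator 49082. One isodecoder, tRNA-iMet-CAT-1, held 96.3% of the initiator counts, with 271060 counts over 7 gene copies. Its copies each took between 12.6 and 15.5% of its counts in every library, close to the 14.3% of an even split, and the copy with the most counts was tRNA-iMet-CAT-1-5. Reads that fit several copies were counted at 1 placement, so single copies are not interpreted. The other initiator isodecoders have 1 copy each, tRNA-iMet-CAT-3 with 9569 counts and tRNA-iMet-CAT-2 with 863.

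The elongator counts were spread over more isodecoders. tRNA-Met-CAT-1, with 2 copies, held 34858 counts or 71.0% of the class, and its copies took between 46.0 and 54.0% each, with tRNA-Met-CAT-1-2 slightly ahead in total. tRNA-Met-CAT-2, also with 2 copies, held 12347 counts or 25.2%. Its copies took between 39.6 and 60.4% each, and tRNA-Met-CAT-2-2 was slightly ahead in total (6264 counts against 6083). The remaining elongators were rare, with 1031 counts for tRNA-Met-CAT-3, 432 for tRNA-Met-CAT-6, 393 for tRNA-Met-CAT-4 and 21 for tRNA-Met-CAT-5. The last was at most 4 counts in any library, failed the filter on low counts in every fit and has no fold change; the other 8 isodecoders passed it. Initiator copies are 72 bases long and elongator copies 73, so levels of the 2 classes can be set side by side with almost no correction for length.

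The question of how the fractions differ was addressed first. Levels are given as CPM scaled by TMM factors, a correction for differences in composition between libraries. In WT astrocytes the initiator sum was 5710, 6151 and 5023 CPM in replicates 1, 2 and 3, and in KIN astrocytes it was 5917, 6603 and 6426.5 CPM. In microglia it was 4464, 7534 and 3499.6 CPM in WT and 9008, 8755 and 11123 CPM in KIN. In neurons it was 374, 3595 and 1202 CPM in WT and 1527, 1471 and 799 CPM in KIN. Every neuronal library except WT replicate 2 lay below every glial library, and that library overlapped the lowest microglial one.

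The elongator sum did not separate the WT fractions in the same way. It was 855, 1179 and 805 CPM in WT astrocytes and 1219, 1504 and 1339 CPM in KIN astrocytes. In microglia it was 490.3, 927 and 499.7 CPM in WT and 1337, 1197 and 1365 CPM in KIN. In neurons it was 145, 1535 and 279 CPM in WT and 568, 425 and 339 CPM in KIN. WT neurons thus spanned the whole range of WT glia, through replicate 2 alone, whereas KIN neurons lay below all KIN glia. Of all rows, 58.5% did not overlap between KIN neurons and KIN astrocytes and 60.8% between KIN neurons and KIN microglia.

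**Figure D1:**
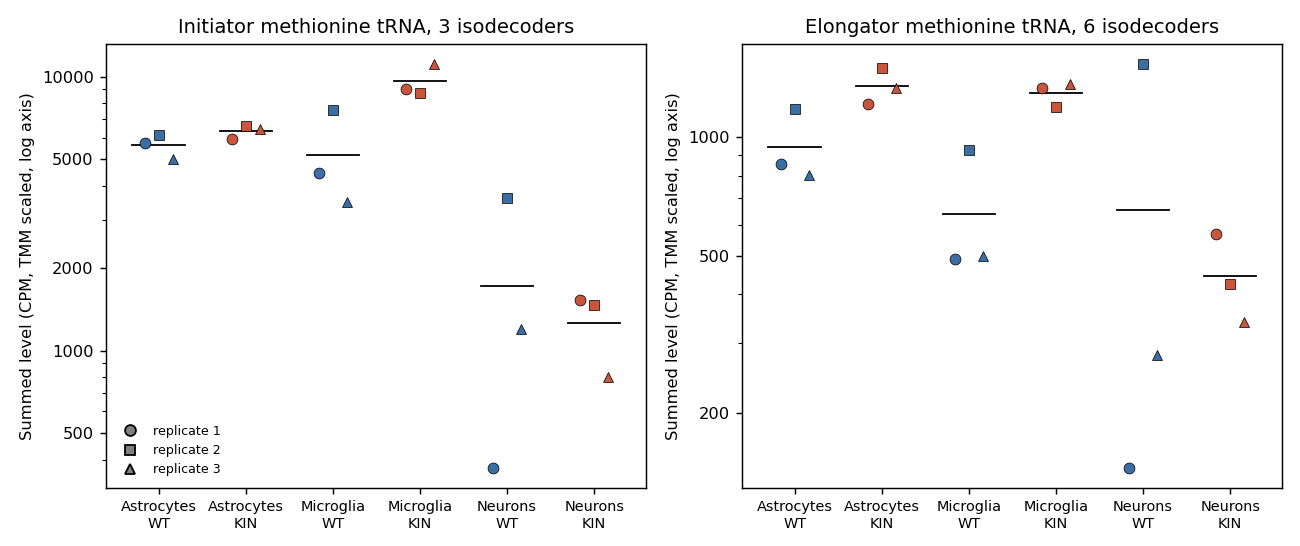
Summed level of the initiator (left) and elongator (right) methionine tRNAs in CPM scaled by TMM factors, on log axes that differ between the panels, for the 6 groups. Each symbol is 1 library, shaped by replicate, and the line is the mean of 3 libraries; WT neurons range from 374 to 3595 CPM for the initiator and from 145 to 1535 CPM for the elongator, with replicate 2 at the top.

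Differences between fractions were tested with edgeR's quasi-likelihood test in 1 fit of all 18 libraries, with Benjamini-Hochberg adjustment over all 6567 rows that passed the filter. A row was called when its adjusted p was 0.05 or lower and its log2 fold change was 1 or more in size. The initiator sum was lower in WT neurons than in WT astrocytes by a log2 fold change of -1.71 ± 0.47 (SE, n = 3 per group, adjusted p = 0.0075) and than in WT microglia by -1.58 ± 0.47 (adjusted p = 0.0133), a call that was lost without microglia WT replicate 2 (adjusted p = 0.0734) or without neurons WT replicate 3 (adjusted p = 0.0596). Relative to the tRNA pool the same differences were -0.70 and -0.68, short of a call. In KIN, the differences were -2.32 ± 0.48 against astrocytes (adjusted p = 0.0008) and -2.93 ± 0.50 against microglia (adjusted p = 7.0e-05), and -0.68 and -0.83 relative to the tRNA pool, again not called. In bulk fractions fewer cells of a type and less RNA per cell cannot be told apart, and equal RNA input makes every level relative.

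The elongator sum was not called between WT neurons and WT astrocytes (log2 fold change -0.53 ± 0.51, adjusted p = 0.431) or WT microglia (0.04 ± 0.51, adjusted p = 0.969). Without neurons WT replicate 2 these became -1.94 (adjusted p = 3.1e-05) and -1.47 (adjusted p = 0.0006), both called. Because same-numbered WT astrocyte and neuronal libraries deviated together, the value with the replicate number as a block is given too, and it was -1.12 (adjusted p = 0.0235) for neurons against astrocytes. In KIN neurons the elongator sum was lower than in astrocytes (-1.61 ± 0.52, adjusted p = 0.0207) and microglia (-1.55 ± 0.52, adjusted p = 0.0222), whereas relative to the tRNA pool the differences were 0.045 and 0.56. The first call was lost without astrocytes KIN replicate 2 or 3 or neurons KIN replicate 2 or 3 (-1.57 to -1.32) and the second without microglia KIN replicate 3 or neurons KIN replicate 2 or 3 (-1.51 to -1.38). Neither class sum was called between microglia and astrocytes in either genotype, with log2 fold changes of -0.12 and 0.61 for the initiator and -0.57 and -0.06 for the elongator in WT and KIN. By group mean the initiator sum ran in the order KIN microglia (9628 CPM), KIN astrocytes (6316), WT astrocytes (5628), WT microglia (5166), WT neurons (1724) and KIN neurons (1265), and of the neighbours in this order that a test compared none passed the threshold, save WT microglia over WT neurons.

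The ratio of initiator to elongator reads uses a single library at a time and so does not depend on how libraries are scaled to each other. Per base, it was 6.77, 5.29 and 6.33 in WT astrocytes, 9.23, 8.24 and 7.10 in WT microglia, and 2.61, 2.37 and 4.36 in WT neurons. In KIN it was 4.92, 4.45 and 4.87 in astrocytes, 6.83, 7.42 and 8.26 in microglia, and 2.73, 3.51 and 2.39 in neurons. In each genotype the 3 fractions followed the order microglia, astrocytes, neurons without overlap.

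Group means of the ratio were 6.13 ± 0.76 in WT astrocytes, 8.19 ± 1.07 in WT microglia and 3.12 ± 1.08 in WT neurons (SD, n = 3 each), and 4.75 ± 0.26, 7.50 ± 0.72 and 2.87 ± 0.57 in the KIN fractions. On the log2 scale WT neurons differed from WT astrocytes by -1.02 ± 0.29 and from WT microglia by -1.44 ± 0.29, and WT microglia from WT astrocytes by 0.42 ± 0.15 (difference ± SE). In KIN these differences were -0.74 ± 0.17, -1.40 ± 0.18 and 0.66 ± 0.09. All 6 had a two-sided exact permutation p of 0.1, the smallest that 3 against 3 libraries allow, and an adjusted p of 0.129 over the 9 comparisons made, so the design could not reach 0.05. With only the most abundant isodecoder of each class, tRNA-iMet-CAT-1 over tRNA-Met-CAT-1, WT microglia and WT astrocytes overlapped (difference 0.28, exact p = 0.3).

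Between genotypes, the ratio did not overlap in astrocytes, where each KIN library (4.45 to 4.92) lay below each WT library (5.29 to 6.77). The log2 difference was -0.36 ± 0.12, or a fold of 0.778, with a two-sided exact permutation p of 0.1 and an adjusted p of 0.129, and it lay between -0.46 and -0.29 when each library was left out in turn. With only the most abundant isodecoders it was -0.40 (exact p = 0.1). In microglia the difference was -0.12 ± 0.14 (exact p = 0.5) and in neurons -0.08 ± 0.32 (exact p = 0.9), and there the groups overlapped. KIN astrocytes also carried less of the astrocyte marker list and more of the oligodendrocyte list, as given above, and the part of this shift in the ratio was not tested.

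**Figure D2:**
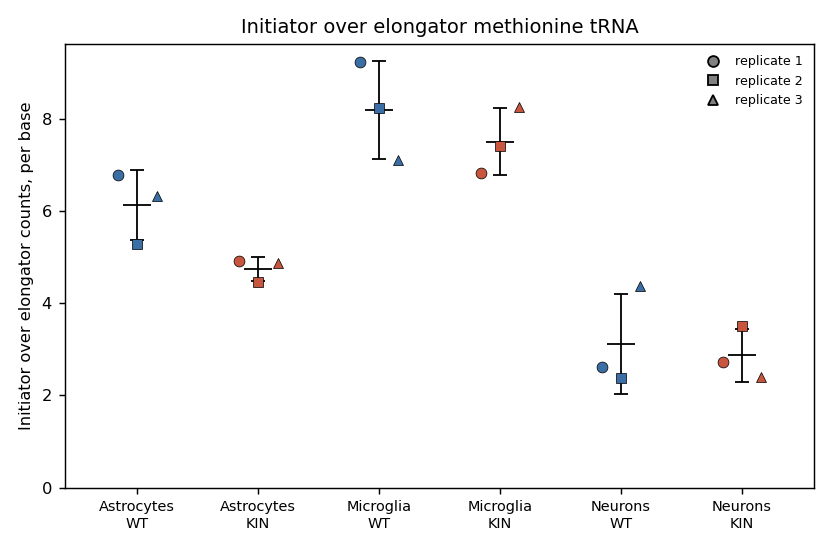
Initiator over elongator methionine tRNA counts, each divided by the length of its genes, on a linear axis from 0. Symbols are single libraries shaped by replicate and bars are the mean ± SD of 3; microglia are highest (6.83 to 9.23), neurons lowest (2.37 to 4.36), and KIN astrocytes (4.45 to 4.92) lie below WT astrocytes (5.29 to 6.77).

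A rare initiator and a rare elongator differed between the glial fractions in opposite directions. tRNA-iMet-CAT-3 stood at 37.2, 61.8 and 46.3 CPM in WT astrocytes and at 382, 253 and 304 CPM in WT microglia. In KIN it was 46.4, 66.0 and 52.0 CPM in astrocytes and 83.9, 493 and 889 CPM in microglia. Microglia thus lay above astrocytes in each library of both genotypes, with KIN microglia replicate 1 close to the astrocyte range. Between these fractions 49.8% of all rows in WT and 52.5% in KIN did not overlap. In neurons tRNA-iMet-CAT-3 was at 4.28, 30.6 and 11.4 CPM in WT and 16.1, 14.0 and 9.94 CPM in KIN.

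The log2 fold change of tRNA-iMet-CAT-3 in microglia over astrocytes was 2.69 ± 0.58 in WT (adjusted p = 0.0012) and 3.16 ± 0.59 in KIN (adjusted p = 0.0003), and it was called under each alternative run, with values between 2.53 and 3.04 in WT and between 2.399 and 3.71 in KIN. Among 180 tRNA isodecoders in the fit it ranked 6 from the top in both genotypes. In neurons over microglia the log2 fold change was -4.30 ± 0.64 in WT (adjusted p = 2.0e-05) and -5.19 ± 0.66 in KIN (adjusted p = 1.8e-06), at rank 180 and 179 of 180. Its share of the initiator counts was 8.55, 3.36 and 8.69% in WT microglia and 0.931, 5.63 and 7.99% in KIN microglia, against 0.65 to 1.24% in all astrocyte and neuronal libraries.

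Within microglia, the libraries with the fewest reads of tRNA-iMet-CAT-3 were also those with the fewest features detected. KIN replicate 1 had 210 counts and 13941 features detected, and WT replicate 2 had 719 counts and 17884 features, whereas the other 4 had 1174 to 3110 counts and 19667 to 29541 features. The microglial marker list was at 3147 CPM in KIN replicate 1 and 2921 CPM in WT replicate 2, against 3170 to 5990 CPM in the rest. The part of these differences in the spread of tRNA-iMet-CAT-3 was not tested.

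tRNA-Met-CAT-3 was the reverse. It stood at 29.0, 34.4 and 27.8 CPM in WT astrocytes and at 2.75, 8.44 and 4.404 CPM in WT microglia. In KIN it was 36.5, 38.7 and 41.6 CPM in astrocytes and 6.79, 6.75 and 5.15 CPM in microglia, and the 6 microglial libraries held 10 to 24 counts each. The astrocyte and microglial libraries did not overlap. In the same comparison 49.8% of all rows did not overlap in WT and 52.5% in KIN, and 3 and 5 of the 8 methionine isodecoders. The log2 fold change of tRNA-Met-CAT-3 in microglia over astrocytes was -2.56 ± 0.67 in WT (adjusted p = 0.0053) and -2.64 ± 0.66 in KIN (adjusted p = 0.0045). It ranked 172 and 175 of 180 tRNA isodecoders. In WT neurons it was 4.28, 57.3 and 4.47 CPM and in KIN neurons 17.2, 9.96 and 8.98 CPM. It was called higher in WT neurons than in WT microglia (2.13 ± 0.67, adjusted p = 0.0182), but without neurons WT replicate 2 the value was 0.013 (adjusted p = 0.996), and the call was also lost without microglia WT replicate 1 or 3.

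**Figure D3:**
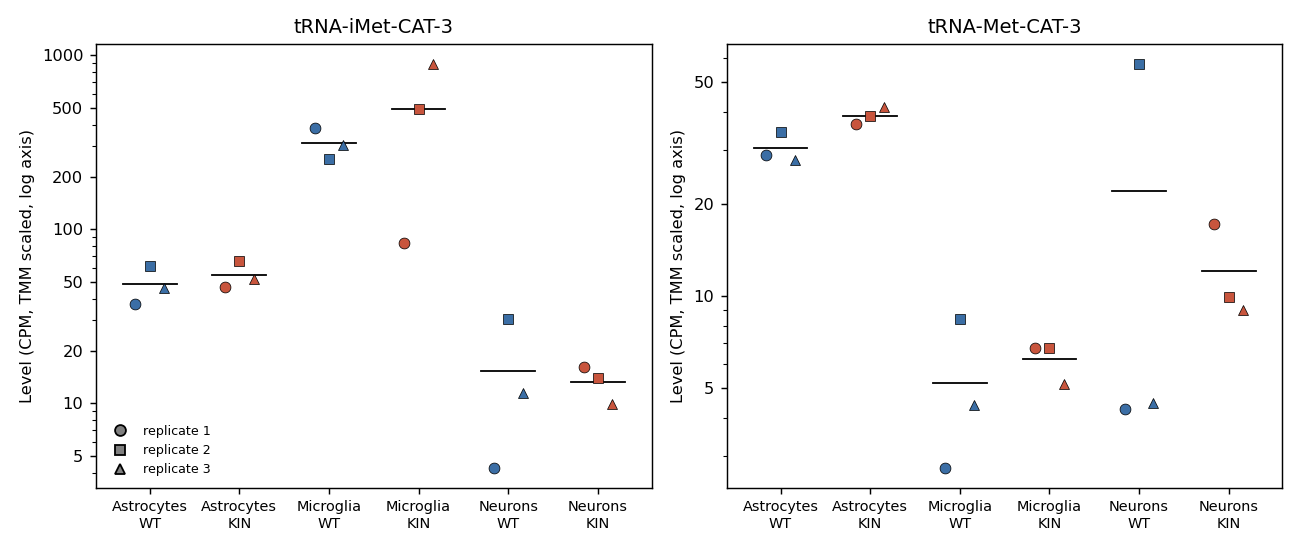
Level of tRNA-iMet-CAT-3 (left) and tRNA-Met-CAT-3 (right) in CPM scaled by TMM factors, on log axes that differ between the panels, in the 18 libraries (symbols shaped by replicate, line at the mean of 3). Microglia are above astrocytes for the initiator (83.9 to 889 against 37.2 to 66.0 CPM) and below them for the elongator (2.75 to 8.44 against 27.8 to 41.6 CPM).

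Against these fraction differences stands a high background. Of all rows tested, 28.3% were called for WT microglia over WT astrocytes, where 2 of the 8 isodecoders were called, and 24.6% for KIN microglia over KIN astrocytes, again with 2 of 8. For neurons over astrocytes the background was 36.5% in WT, with 2 of 8 isodecoders called, and 31% in KIN, with 6 of 8. For neurons over microglia it was 30.1% in WT and 36.1% in KIN, with 5 of 8 called in each. Leaving out neurons WT replicate 2 raised the count for WT neurons over astrocytes from 2 to 6. The replicate block raised it to 4. Of 172 other tRNA isodecoders, 101 were called lower and 2 higher in KIN neurons than in KIN astrocytes. Their median log2 fold change was -1.72. Against KIN microglia 120 were called lower and 4 higher (median -1.85). WT neurons had 69 lower and 3 higher than astrocytes (median -1.05), and 46 and 15 against microglia (-0.66). For microglia over astrocytes, 20 were called lower and 13 higher in WT (-0.46), while KIN had 9 lower and 28 higher (0.29).

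The 2 abundant elongators followed the class sum. tRNA-Met-CAT-1 was called between KIN neurons and KIN astrocytes (-1.74 ± 0.55, adjusted p = 0.0181) and KIN microglia (-1.74 ± 0.55, adjusted p = 0.0159), as was tRNA-Met-CAT-2 (-1.29 ± 0.45, adjusted p = 0.0321, and -1.22 ± 0.45, adjusted p = 0.0378); relative to the tRNA pool none of the 4 was called, and tRNA-Met-CAT-1 against microglia and tRNA-Met-CAT-2 in both turned positive, at 0.36, 0.90 and 0.37. The calls of tRNA-Met-CAT-2 were near the threshold: leaving out each of the 6 libraries in turn, the call against astrocytes held only without neurons KIN replicate 1 and that against microglia only without microglia KIN replicate 1, with log2 fold changes of -1.45 to -0.97 and -1.38 to -1.10 over the 6. Those of tRNA-Met-CAT-1 were lost without neurons KIN replicate 3 in both and without astrocytes KIN replicate 2. Neither elongator was called between WT fractions with all libraries. Without neurons WT replicate 2, tRNA-Met-CAT-1 was called lower in WT neurons than in astrocytes (-2.04, adjusted p = 5.9e-05) and microglia (-1.62, adjusted p = 0.0008), and tRNA-Met-CAT-2 than in astrocytes (-1.36, adjusted p = 0.0017) but not microglia (-0.96, adjusted p = 0.0238). With the replicate block tRNA-Met-CAT-1 was also called against astrocytes (-1.27, adjusted p = 0.017). Relative to the tRNA pool all 4 differences were above 0, and that of tRNA-Met-CAT-2 against microglia was called higher (1.03, adjusted p = 0.0084). Their shares of the elongator pool were 69.99 ± 1.81 and 24.8 ± 1.6% in WT astrocytes and 72.2 ± 0.4 and 25.7 ± 0.2% in WT microglia. In WT neurons they were 61.3 ± 7.8 and 32.7 ± 8.8%, where replicate 1, with 237 elongator counts in all, gave 52.3 and 42.6%. KIN neurons, at 64.9 ± 2.3 and 30.5 ± 2.4%, lay below all glial libraries for tRNA-Met-CAT-1 and above them for tRNA-Met-CAT-2.

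tRNA-Met-CAT-4 was a rare elongator with an uneven record. It had 1, 109 and 8 counts in WT neurons and 15, 3 and 5 in KIN neurons, or 0.61, 47.7 and 3.97 CPM against 5.49, 1.11 and 1.60 CPM. The library that stood apart therefore held more of them than the other 5 neuronal libraries together. It was called higher in WT neurons than in WT microglia (2.99 ± 0.88, adjusted p = 0.012), and the value without that library was 0.36 (adjusted p = 0.766), with the call also lost without microglia WT replicate 1 or 3. In glia it was 6.05 to 13.9 CPM in WT astrocytes, 8.63 to 9.48 CPM in KIN astrocytes, 1.30 to 4.22 CPM in WT microglia and 3.14 to 7.03 CPM in KIN microglia. tRNA-Met-CAT-6 ranged from 2.45 to 17.9 CPM over the 18 libraries and was called between no fractions.

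The initiator isodecoder tRNA-iMet-CAT-1 carried the class sum and gave nearly the same fold changes. It was lower in WT neurons than in WT astrocytes (-1.71 ± 0.48, adjusted p = 0.0077) and WT microglia (-1.51 ± 0.48, adjusted p = 0.0184), and in KIN neurons by -2.32 ± 0.49 and -2.87 ± 0.50. tRNA-iMet-CAT-2, at 1.84 to 28.6 CPM over the libraries, was lower in neurons than in microglia in WT (-1.47 ± 0.46, adjusted p = 0.0182) and KIN (-2.15 ± 0.45, adjusted p = 0.0007). All 3 initiator isodecoders were called lower in neurons than in microglia in both genotypes, in comparisons where 30.1% of all rows were called in WT and 36.1% in KIN. Relative to the tRNA pool tRNA-iMet-CAT-1 and tRNA-iMet-CAT-2 were called in neither, at -0.60 and -0.54 in WT and -0.78 and -0.040 in KIN. Of the 5 elongators tested none was called lower in WT neurons than in WT microglia, and the classes as such were compared through their ratio, whose test could not go below 0.1. In WT the calls of tRNA-iMet-CAT-1 and tRNA-iMet-CAT-2 were lost without microglia WT replicate 2 (-1.09 and -1.29) or neurons WT replicate 3 (-1.30 and -1.26), and that of tRNA-iMet-CAT-2 also without neurons WT replicate 1 (-1.06).

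The comparison of KIN with WT within a fraction used a separate fit of 6 libraries for each fraction. In astrocytes 8.23% of the 5541 rows were called and none of the 8 methionine isodecoders. The WT and KIN libraries did not overlap for 35.8% of these rows and for 3 of the 8 isodecoders. The elongator sum had a log2 fold change of 0.54 ± 0.15 (adjusted p = 0.0441), under the size needed for a call, and the initiator sum one of 0.19 ± 0.09 (adjusted p = 0.174); with scaling factors taken from mature miRNAs these turned to -0.14 and -0.53, and relative to the tRNA pool the initiator was at -0.12. tRNA-Met-CAT-1, at 594, 849 and 551 CPM in WT and 885, 1067 and 954 CPM in KIN, did not overlap between genotypes and gave 0.57 ± 0.16 (adjusted p = 0.0465), against -0.11 with miRNA factors. tRNA-Met-CAT-2, at 219.97, 270.4 and 208 CPM in WT and 279.8, 378 and 327 CPM in KIN, gave 0.52 ± 0.15 (adjusted p = 0.055), against -0.18 with miRNA factors. The other 168 tRNA isodecoders had a median log2 fold change of 0.25, with 133 above 0, while the median of all rows was -0.20 and moved to -0.90 with miRNA factors.

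In microglia 6.35% of the 4786 rows were called, and 1 of the 8 methionine isodecoders. The WT and KIN libraries did not overlap for 25.3% of these rows and for 5 of the 8 isodecoders. tRNA-Met-CAT-1, the main elongator, stood at 355, 670.5 and 358 CPM in WT and 1002, 866 and 1027 CPM in KIN. Each KIN library was above each WT library, and the log2 fold change was 1.07 ± 0.28 (adjusted p = 0.0472). The call was near the threshold on both counts. It held with DESeq2 (1.10, adjusted p = 0.0191) and without the filter (1.00, adjusted p = 0.0005) but was lost with the replicate block (1.14, adjusted p = 0.0845), with library totals (0.85), with miRNA factors (0.65), in 1 fit of all libraries (1.07, adjusted p = 0.307), and without any single library other than WT replicate 2, without which it was 1.46 (adjusted p = 0.0015). Adjusted p ranged from 0.0005 to 0.448 over its alternatives, and relative to the tRNA pool the log2 fold change was 0.21.

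The rest of the methionine tRNAs in microglia leaned the same way without a call. The initiator sum had a log2 fold change of 0.89 ± 0.29 (adjusted p = 0.0908) and the elongator sum one of 1.02 ± 0.28 (adjusted p = 0.0515), which DESeq2 called at 1.05 (adjusted p = 0.0231). Without WT replicate 2, the WT library with the most methionine tRNA, both sums were called, at 1.29 (adjusted p = 0.0021) and 1.42 (adjusted p = 0.0015). tRNA-iMet-CAT-1, at 4068, 7259 and 3179 CPM in WT and 8899, 8235 and 10205 CPM in KIN, gave 0.91 ± 0.30 (adjusted p = 0.0952). tRNA-Met-CAT-2 gave 0.93 ± 0.28 (adjusted p = 0.0717), at 127, 237 and 128 CPM in WT and 309.9, 308 and 317 CPM in KIN. tRNA-iMet-CAT-3, with a log2 fold change of 0.61 ± 0.56 (adjusted p = 0.593), overlapped between genotypes and turned to -0.41 relative to the tRNA pool.

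Most other tRNAs were also higher in KIN microglia. The other 168 tRNA isodecoders in microglia had a median log2 fold change of 0.91, with 164 above 0, 4 called higher and none lower, while the median of all rows was -0.09. Relative to the tRNA pool, the initiator sum was at 0.04 and the elongator sum at 0.16. tRNA-Met-CAT-1 ranked 40 and tRNA-iMet-CAT-1 ranked 91 of 176 tRNA isodecoders by fold change. KIN microglia libraries also held more of the microglial marker list (3147 to 5990 CPM against 2921 to 3503 CPM in WT) and the part of this in the values was not tested.

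In neurons 0% of the 4381 rows were called by edgeR and none by DESeq2, with 210 and 125 rows at an unadjusted p of at most 0.05. No methionine isodecoder was called. The initiator sum had a log2 fold change of -0.51 ± 0.58 (adjusted p = 0.898) and the elongator sum one of -0.61 ± 0.65 (adjusted p = 0.894), and without WT replicate 2 these turned to 0.50 (adjusted p = 0.575) and 0.86 (adjusted p = 0.392). tRNA-Met-CAT-4 gave -2.74 ± 1.11 (adjusted p = 0.864), and -0.033 without that library. A difference in neurons was thus not detectable with these libraries.

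**Figure D4:**
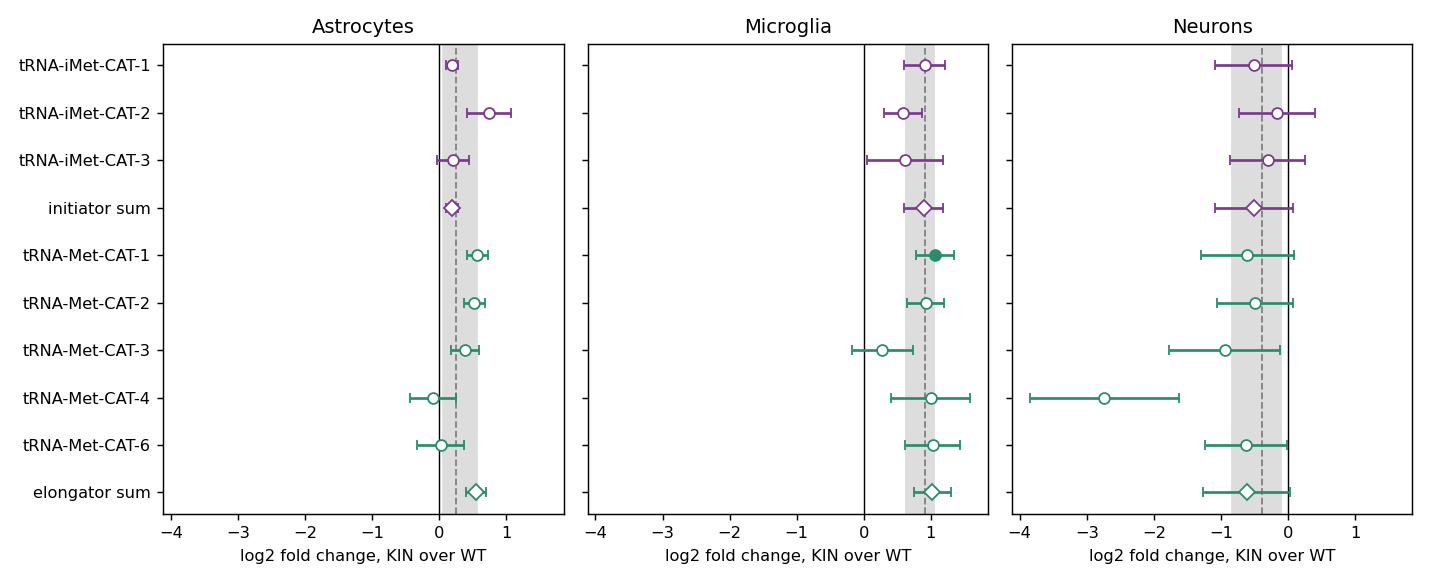
Log2 fold change of KIN over WT ± SE for the 8 isodecoders tested (circles) and the 2 class sums (diamonds) in each fraction, initiators in purple and elongators in green, filled where called. The grey band is the middle 50% and the dashed line the median of the other tRNA isodecoders (0.25, 0.91 and -0.39); only tRNA-Met-CAT-1 in microglia is filled.

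Whether the KIN effect differed between fractions was tested in the fit of all libraries. For microglia minus astrocytes 0.244% of rows were called, for neurons minus astrocytes 0% (591 rows at an unadjusted p of at most 0.05) and for neurons minus microglia 1.57%, and no methionine isodecoder or class sum was among them. The initiator sum differed by 0.73 ± 0.65 between microglia and astrocytes (adjusted p = 0.921) and the elongator sum by 0.51 ± 0.72 (adjusted p = 0.975). For neurons minus microglia the values were -1.35 ± 0.66 (adjusted p = 0.416) and -1.59 ± 0.72 (adjusted p = 0.379), and without neurons WT replicate 2 they were -0.20 and 0.047. Without neurons WT replicate 1 the initiator difference was -1.83 (adjusted p = 0.044) and passed the threshold. The call in microglia is therefore not shown to be larger than the effect in astrocytes.

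Shares of the tRNA pool show the same members without reference to other RNA classes. The initiator took 5.07, 5.02 and 4.78% of tRNA counts in WT astrocytes and 4.53, 4.51 and 4.66% in KIN astrocytes. The groups did not overlap, with a difference of -0.39 percentage points (two-sided exact permutation p = 0.1, adjusted p = 0.40 over 6 tests). The elongator took 0.83 ± 0.12% in WT and 0.98 ± 0.05% in KIN astrocytes (exact p = 0.2). In microglia the initiator took 4.92 ± 0.57% in WT and 5.06 ± 0.44% in KIN (exact p = 0.7) and the elongator 0.61 ± 0.06% and 0.69 ± 0.07% (exact p = 0.2). In neurons the initiator took 1.71, 3.97 and 3.49% in WT and 3.03, 3.25 and 2.26% in KIN, and the elongator 0.66, 1.70 and 0.81% and 1.13, 0.94 and 0.96%. Neuronal groups overlapped for both. As a share of all counts the astrocyte initiator difference turned to 0.016 percentage points.

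The mitochondrial genome encodes a methionine tRNA of its own, mt-Tm, which serves both roles inside mitochondria. It held 114716 counts over the 18 libraries. Its level was 4292, 5300.2 and 4187 CPM in WT astrocytes and 793, 1065 and 652 CPM in WT microglia, a log2 fold change of -2.46 ± 0.66 (adjusted p = 0.0065), where neither cytosolic class was called. In KIN the levels were 3829.8, 3643 and 4118 CPM in astrocytes and 1357, 1206 and 1276 CPM in microglia, with -1.59 ± 0.64 (adjusted p = 0.0707). WT neurons held 96.7, 3066 and 371 CPM and KIN neurons 467, 404.7 and 419.5 CPM, and the neuronal library with the most cytosolic methionine tRNA also had the most mt-Tm. In neurons over astrocytes mt-Tm was called lower in WT (-1.96 ± 0.64, adjusted p = 0.0201) and KIN (-3.17 ± 0.68, adjusted p = 0.0009), as was the initiator sum. Neurons and microglia were not called apart, at 0.49 ± 0.62 in WT and -1.57 ± 0.64 in KIN (adjusted p = 0.571 and 0.0565), and a difference between mt-Tm and the cytosolic sums was not tested. Between genotypes mt-Tm was not called in any fraction, with -0.23 ± 0.10 in astrocytes, 0.62 ± 0.24 in microglia and -1.48 ± 0.86 in neurons. No fit of mt-Tm was run without neurons WT replicate 2, so its fold changes that involve WT neurons include that library. WT neurons replicates 1 and 3, at 96.7 and 371 CPM, lay below every WT microglial and every KIN neuronal library.

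Proteins that handle methionine tRNAs were followed through the reads counted on their transcripts. Of 86 transcripts with counts from genes that deliver the initiator to the start codon, 3, 4 and 7 passed the filter in astrocytes, microglia and neurons, and none was called. The transcript with the most counts was Eif5-208, of the GTPase-activating factor eIF5, at 100677 counts, with log2 fold changes of -0.029 ± 0.10, 0.16 ± 0.26 and -0.52 ± 0.30 in the same order. Its neighbour Eif5-204 held 99700 counts, and reads shared by transcripts of 1 gene cannot be told apart here. The other transcripts of this list that passed held 37 (Eif5b-201) to 78 (Eif1-201) counts. Whether the reads on the Eif5 rows came from its mRNA or from another RNA of the locus was not tested. Of 39 transcripts from genes that bring aminoacyl-tRNA to the ribosome, 2, 9 and 9 passed and none was called. The most counted, Eef1a1-201, which encodes the carrier itself, held 620 counts over the 18 libraries. Of 49 transcripts for tRNA maturation and export only Ssb-206, of the La protein that binds new tRNA ends, passed, in neurons, and the most counted was Rtcb-201, of the tRNA ligase, with 30 counts. No transcript passed among 42 for charging with methionine and removal of the start methionine (at most 25 counts, Mars2-201), 6 for tRNA cleavage (at most 10, Rnh1-202) or 50 for transcription by RNA polymerase III (at most 24, Gtf3c1-204). For the lists with no transcript past the filter, changes were not detectable at this depth.

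The rows whose levels followed the class sums most closely were mostly other tRNAs. Over 18 libraries and 1624 rows with a mean of at least 50 counts, the initiator sum was nearest to tRNA-Ser-TGA-1 (Pearson r = 0.989), tRNA-Ser-CGA-2 (0.989), tRNA-Ser-CGA-1 (0.987), Hes7-201 (0.986) and Gm17494-202 (0.982), on log2 CPM. The elongator sum was nearest to tRNA-Ser-GCT-4 (0.976), B230208H11Rik-202 (0.973), B230208H11Rik-201 (0.973), tRNA-Leu-TAA-2 (0.973) and tRNA-Ala-CGC-2 (0.971). Chosen after its values were seen, tRNA-iMet-CAT-3 was nearest to tRNA-Asp-GTC-4 (0.973), tRNA-Trp-CCA-5 (0.968), mmu-piR-23501 (0.964), tRNA-Trp-CCA-1 (0.964) and tRNA-Cys-GCA-1 (0.961). The points share their library, its depth and its fraction, so these values are a description.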

How the data were processed

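Small RNA libraries from 3 brain cell fractions of WT and KIN mice were analysed, 3 per group, with groups and replicate numbers taken from the titles. Per the submitters' processing notes and the study's methods, the authors trimmed reads with cutadapt 4.6, placed them with Bowtie2 2.4.4 on miRNAs, then tRNA genes, piRNAs and noncoding and coding transcripts of mm39, and counted them with HTSeq 2.0.2 without strand. The deposited counts are whole reads per feature, not normalized. Columns of the authors' comparisons (fold changes and p-values) and 36 per-library columns on other scales were not used. No row lacked a feature name. Whether identical molecular identifiers were collapsed in these files is not given in the sources used here. Positions and sequences of the gene copies were not used here.

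Copies were summed per isodecoder and per class. Tests were edgeR 4.0.16 quasi-likelihood fits (R 4.3.3, limma 3.58.1) on the whole table with TMM factors, on rows that reached 5 counts in 2 or more of 6 libraries (KIN against WT) or 3 or more of 18 (fractions, interactions), with Benjamini-Hochberg adjustment. SE is the absolute log2 fold change over the root of F. Fits recovered known changes in simulated data. The simulated counts varied less than those of the neuronal libraries and held no library that stood apart. Recovery at the spread of the neuronal fraction was therefore not tested. Ratios and shares were compared by two-sided exact permutation tests (SciPy), with 10 splits and a smallest p of 0.1. Likeness was Pearson's r on log2 CPM with 0.5 counts added. Alternatives were DESeq2 1.42.0, other scalings, no filter, other samples in the fit, a replicate block, gene copies and leaving out each library. Between replicates of a group, chi-square per degree of freedom was at least 7.11, so no library was counted as a repeat of another.

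Named were all 9 isodecoders, the most counted copy of each isodecoder, the 5 rows most like each class sum, and called or most counted rows of the transcript lists. The members and lists were chosen with earlier results of these data known. The study took the fractions in turn from single brains of 3 WT and 3 KIN mice, in same-sex littermate pairs of both sexes. Each group of 3 thus mixed the sexes. The labels do not say which mouse, litter or sex a replicate number marks. The p-values measure the spread between these libraries, which may in part be technical. Correlations of same-numbered libraries' deviations, KIN with WT, were -0.26 to 0.18, with no fraction over 0.1 in all 3 pairs. Between fractions of a genotype all 3 exceeded 0.1 for WT astrocytes with neurons alone (0.18 to 0.41). For WT astrocytes with microglia they were 0.39, 0.41 and 0.090, and for WT microglia with neurons 0.15, 0.25 and 0.025. Values between KIN fractions ran from -0.29 to 0.24.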

Additional observations from a re-analysis of the deposited data

How the results depend on the processing

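Of 977 alternatives run for 83 results, 797 were labelled unchanged, and the cause of the other outcomes was not tested except where named. For fold changes, unchanged meant the same direction and side of the threshold. Ratios and shares could change only in direction, since their smallest p was 0.1. A count of isodecoders called was taken as unchanged when equal or close to the main count. With factors from mature miRNAs, KIN over WT in astrocytes turned to -0.53 (log2) for the initiator sum, -0.14 for the elongator sum, -0.53 for tRNA-iMet-CAT-1, -0.46 for tRNA-iMet-CAT-3, -0.11 for tRNA-Met-CAT-1 and -0.18 for tRNA-Met-CAT-2. Relative to the tRNA pool, it was -0.12 for the initiator sum and tRNA-iMet-CAT-1 and -0.11 for tRNA-iMet-CAT-3, and -0.41 for tRNA-iMet-CAT-3 in microglia. Under this scaling the initiator difference of neurons from astrocytes and microglia was -0.70 and -0.68 in WT and -0.68 and -0.83 in KIN, none called. The elongator difference was 0.35 from WT astrocytes and 0.045 and 0.56 in KIN. For tRNA-Met-CAT-2 it was 0.37 and 0.90 in KIN and for tRNA-Met-CAT-1 0.36 against microglia. The KIN effect of microglia minus astrocytes was -0.071 for the elongator and that of neurons minus astrocytes 0.013 for the initiator. With library totals, the elongator difference of KIN neurons was -1.18 from astrocytes and -1.01 from microglia, not called. DESeq2 called the elongator in microglia (1.05). It gave tRNA-Met-CAT-3 no adjusted p between fractions. In a fit of only the 2 groups compared, the initiator difference of WT neurons was -1.49 and -1.46, not called. Without the filter, WT microglia over astrocytes was 0.0084 for the initiator and WT neurons over microglia -0.20 for the elongator. As a share of all counts, the astrocyte initiator difference was 0.016 percentage points.

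With the replicate number as a block, the elongator was 0.031 for KIN over WT in neurons, -1.12 for WT neurons over astrocytes (called) and -0.46 over microglia. No other class sum changed its call or direction under the block. A ratio difference has the same value with and without the block. The count of isodecoders called for KIN over WT in microglia went from 1 to 0 with the block, library totals, miRNA factors, the tRNA pool, 1 fit of all 18 libraries and gene copies tested singly. In neurons it was 1 with miRNA factors and 1 without the filter. For WT neurons over astrocytes it went from 2 to 4 with the block, 1 with library totals or the tRNA pool and 0 with only the 2 groups, and over microglia from 5 to 1 with only the 2 groups. For KIN it went from 2 to 1 with DESeq2 (microglia over astrocytes), from 6 to 0 with the tRNA pool (neurons over astrocytes) and from 5 to 3 with the tRNA pool or library totals (neurons over microglia). Over all rows, the count called for KIN over WT ranged from 41 to 1484 in astrocytes, from 4 to 1074 in microglia and from 0 to 85 in neurons.

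Leaving out each library in turn, KIN over WT ranged from 0.64 to 1.29 for the initiator and 0.84 to 1.42 for the elongator in microglia, from -0.97 to 0.50 and -1.07 to 0.86 in neurons, and from -0.16 to 1.11 for tRNA-iMet-CAT-3 in microglia. Initiator ranges were -0.50 to 0.097 for WT microglia over astrocytes and -2.60 to -1.10 for WT neurons over microglia. Elongator ranges were -1.94 to -0.053 and -1.47 to 0.52 for WT neurons over astrocytes and microglia, -1.81 to -1.32 and -1.76 to -1.38 in KIN, and -0.097 to 0.1002 for KIN microglia over astrocytes. KIN effects ranged from -1.10 to 0.50 (initiator) and -1.55 to 0.53 (elongator) for neurons minus astrocytes and from -1.83 to -0.20 and -2.06 to 0.047 for neurons minus microglia. The log2 ratio in neurons ranged from -0.25 to 0.19. Shares of tRNA differed by -0.163 to 0.401 percentage points (initiator, microglia), -0.888 to 0.242 (initiator, neurons) and -0.246 to 0.269 (elongator, neurons). Isodecoders called ranged from 0 to 1 for KIN over WT in astrocytes and 0 to 3 in microglia, 1 to 6 and 3 to 4 for WT neurons over astrocytes and microglia, 2 to 6 and 3 to 5 in KIN, and 0 to 2 for the KIN effect of neurons minus microglia. Depth limits tRNA-Met-CAT-5, at 21 counts in all, and the rare isodecoders in WT neurons replicate 1, which had 237 elongator counts.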
